A study of Mus musculus with 17 samples.

Results

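Tumor-associated macrophages (TAM, 3 libraries) were compared with cells sorted from the bone marrow of healthy mice (BMDM_H, 4 libraries), and each gene that differed was placed by its level in marrow cells sorted from tumor-bearing mice (BMDM_T, 4 libraries). The comparison itself used 7 of the 17 libraries of the series, the 4 BMDM_T libraries gave the position, and all 11 carried the batch 1 label. Of 10207 table rows with a gene symbol, 7518 had enough counts to be tested. The question was which differences between tumor macrophages and healthy marrow were already present in marrow of mice that carried a tumor, and which were measured in TAM alone.

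Macrophages that enter a growing tumor are largely supplied from marrow through blood monocytes. Along that path monocytes lose precursor and migratory programs and gain phagocytic, antigen-presenting, lysosomal and tissue-repair programs. Growing tumors also release cytokines that act on the marrow itself and raise the output of neutrophils and monocytes, which is why marrow of tumor-bearing animals is measured beside healthy marrow.

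All animals were female BALB/c mice, a standard inbred strain. TAM and BMDM_T came from mice that had received 4T1-luc cells, a luciferase-marked line derived from a BALB/c mammary carcinoma, in the lower left mammary fat pad, while BMDM_H mice were untreated. TAM were sorted as CD11b+ Gr1- F4/80+ cells after tumors were digested with collagenase A, and both marrow groups were sorted as CD11b+ Gr1+ F4/80low cells after bones were flushed and red cells were lysed. The labels name the marrow cells as monocytes, and the sort gate differs between TAM and marrow, so tumor, tissue, gate and digestion cannot be told apart in TAM against BMDM_H. The labels give a mouse age of 8 weeks for TAM and BMDM_T and of 12 weeks for BMDM_H, and they state that injection was at 8 weeks, so the age at collection of the tumor-bearing mice was not used here and tumor and age cannot be told apart. Whether replicates came from different animals is not in the labels, so the spread behind each p-value is that between libraries and may be technical. The tumor model is 1 transplanted line, and nothing in the labels ties a TAM library to a BMDM_T library of the same mouse.

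Total counts ran from 1748338 to 3747929 in TAM, from 931278 to 1218977 in BMDM_T and from 387940 to 1286844 in BMDM_H, and BMDM_H replicates 3 and 4 were the shallowest libraries. Levels below are TMM-scaled CPM, a gene's counts relative to its library's total, and in 3' end libraries 1 transcript gives about 1 tag whatever its length. The first principal component held 72.4% of the variance and set the 3 TAM libraries apart from the 8 marrow libraries. The most abundant gene in each TAM library was Apoe, the lipid carrier of macrophages, and summed CPM of 19 macrophage genes was 83850 to 95260 in TAM against 17520 to 28350 in BMDM_H. Summed CPM of 33 genes of neutrophil specific granules and mature neutrophils was 169600 to 240400 in BMDM_H and 197200 to 238200 in BMDM_T against 10530 to 12110 in TAM. The marrow libraries labelled monocytes thus had neutrophil genes as their most abundant transcripts, and gate and tumor cannot be told apart in the fall of these genes in TAM. In bulk libraries fewer cells of a type and less RNA per cell cannot be told apart.

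TAM and BMDM_H differed at 4230 genes, 56.3% of those tested (edgeR quasi-likelihood test, adjusted p under 0.05). The calls split evenly, with 2103 genes higher in TAM (28.0%) and 2127 lower (28.3%), and the median log2 difference over all tested genes was 0.02. The shares of 28.0% and 28.3% are the background for the list counts below. Differences over 4-fold were found at 554 genes higher and 649 lower in TAM, and differences over 32-fold at 78 higher and 188 lower. BMDM_T and BMDM_H differed at far fewer genes, 212 higher (2.82%) and 150 lower (2.0%) in BMDM_T. That split depended on the scaling: with total counts alone in place of TMM factors it was 155 higher and 218 lower, and the median of all tested genes moved to -0.12 on the log2 scale. Calls in both directions fell to 238 when BMDM_H replicate 2 was left out, and to 179 when BMDM_H replicates 3 and 4 both were. Of the 4230 genes that differed between TAM and BMDM_H, 271 (6.41%) also differed between BMDM_T and BMDM_H, beside 4.82% of all tested genes.

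Each of the 4230 genes was given a position. "Like healthy marrow" means that BMDM_T passed the test against TAM and not against BMDM_H, "between" that it passed both in the TAM direction, "TAM level" that it passed only against BMDM_H, "beyond TAM" that it passed TAM in the same direction, "opposite side" that it moved away from TAM, and "undecided" that it passed neither. The 3 contrasts share libraries, so the counts are descriptions. Among genes higher in TAM, 1737 (82.6%) had BMDM_T like healthy marrow, 33 had it between, 34 at TAM level, 10 beyond TAM, 53 on the opposite side and 236 undecided. Among genes lower in TAM, 1720 (80.9%) were like healthy marrow, 29 between, 24 at TAM level, 2 beyond TAM, 86 on the opposite side and 266 undecided. A missed threshold does not show equality, so a stricter count was made from the 95% interval of BMDM_T minus BMDM_H. This interval lay within a 2-fold change for 988 of the 1737 (56.9%) and 1376 of the 1720 (80.0%). These shares, with the 82.6% and 80.9%, are the background for the positions of list genes below. The plot of both log2 differences shows most genes along the horizontal axis.

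**Figure D1:**
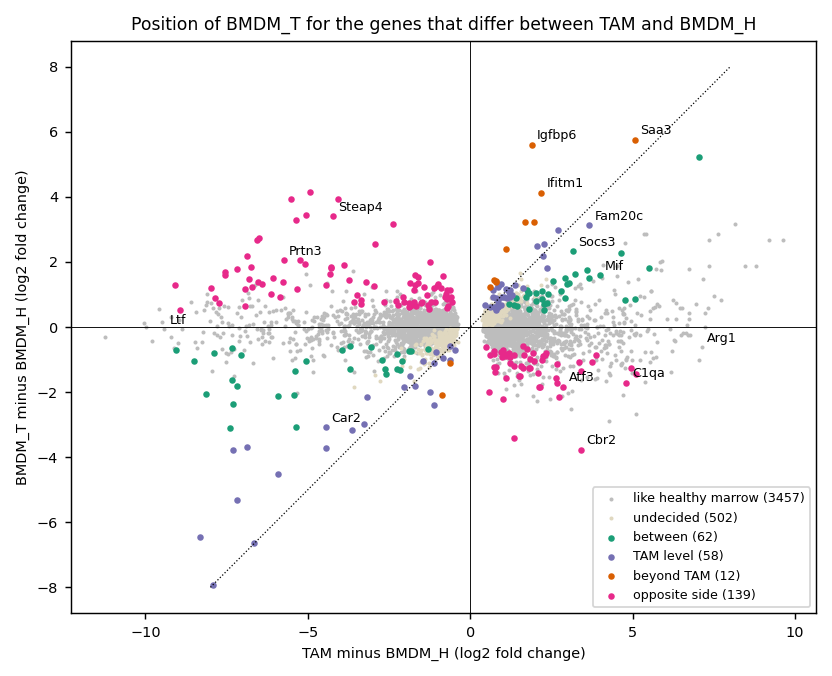
Log2 fold change of TAM minus BMDM_H (horizontal) against BMDM_T minus BMDM_H (vertical) for the 4230 genes that differed between TAM and BMDM_H, coloured by the position of BMDM_T; the dotted line marks equal differences. The 3457 genes like healthy marrow lie near the horizontal axis, and the genes between, at TAM level, beyond TAM or on the opposite side number 62, 58, 12 and 139; genes with 3 or fewer counts in a group have fitted values that depend on the prior count, and the axes share BMDM_H.

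Large rises in TAM were measured against low levels in both marrow groups. Arg1 (chr10:24915221-24927484 on mm10), arginase of alternatively activated macrophages, was at 2536, 1331 and 2003 CPM in TAM, at 1.59, 13.7, 26.0 and 28.6 CPM in BMDM_H and at 1.08, 12.6, 16.2 and 6.31 CPM in BMDM_T. The marrow groups overlapped, every TAM library was far above both, and TAM minus BMDM_H was 7.12 ± 0.47 (log2, SE), 139-fold, with an edgeR adjusted p of 8.89e-11. Mmp14 (chr14:54431612-54445364), a membrane protease that cuts matrix collagen, was at 815, 800 and 693 CPM in TAM against 3.18 to 18.6 in BMDM_H and 7.54 to 23.1 in BMDM_T. Stab1, a scavenger receptor of tissue macrophages, rose 74.9-fold, Rgs1, a brake on G protein signalling, 73.6-fold, Htra3, a secreted serine protease, 77.1-fold, and C4b, a complement component, 80.6-fold. Cxcl16 (chr11:70453983-70459984), a transmembrane chemokine, rose 107-fold and Zmynd15 (chr11:70459433-70466202) 211-fold. These genes overlap on opposite strands from 70459433 to 70459984, and without strand reads in that stretch cannot be told apart. How far the count of either gene holds reads of the other was not tested. For these 8 genes BMDM_T was like healthy marrow. Stab1 overlaps Nt5dc2 on the other strand.

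Pgf, Crym and Spon1 were among the genes with no count in BMDM_H, so that only a lower bound could be set from 3 counts over the group (0.877 CPM). Pgf, a placental growth factor that acts on vessels, was at 112, 56.8 and 47.3 CPM in TAM, at least 82.2-fold higher. Crym, a thyroid hormone-binding protein, was at least 60.5-fold and Spon1, a matrix protein, at least 45.8-fold higher. BMDM_T held 2 counts of Pgf, 2 of Crym and 1 of Spon1 in all.

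Some large rises were matched by a BMDM_T level held within 2-fold of healthy marrow. Tgm2, a transglutaminase that crosslinks proteins, was at 1012, 1207 and 1303 CPM in TAM, at 11.9 to 23.4 in BMDM_H and at 7.54 to 21.9 in BMDM_T, and BMDM_T minus BMDM_H was -0.07 with a 95% interval from -0.71 to 0.57 (log2). Cfb, complement factor B, rose 44.3-fold with an interval from -0.70 to 0.59 for BMDM_T minus BMDM_H. Lgmn, a lysosomal endopeptidase, was at 4679, 4532 and 4495 CPM in TAM and at 117 to 200 in BMDM_H, and its interval for BMDM_T ran from -0.70 to 0.11. Apoe rose 19.0-fold in TAM, and its interval for BMDM_T ran from -0.38 to 0.28.

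Genes of antigen presentation rose in TAM from a like level in both marrow groups. MHC class II molecules display peptides to helper T cells. Of 11 tested genes of this list, 10 rose in TAM and 1 was not called, the median log2 difference was 3.38 beside 0.02 over all tested genes, and for all 10 BMDM_T was like healthy marrow. By the stricter count, 6 of the 10 had BMDM_T within 2-fold. Among all genes higher in TAM, 82.6% were like healthy marrow, and 56.9% of those passed the stricter count. H2-Eb1 (chr17:34305867-34316674) was at 5211, 7172 and 11170 CPM in TAM, at 189, 295, 260 and 276 in BMDM_H and at 134, 332, 225 and 255 in BMDM_T. H2-Ab1 rose 23.7-fold and H2-DMb1, which helps load peptides, 20.9-fold. The costimulators Cd80, Cd86 and Cd40 and the class II regulator Ciita were among the 10 that rose. Of 12 tested checkpoint and costimulation genes, 9 rose and 1 fell, among them Cd83 (45.8-fold), the poliovirus receptor homolog Pvr (34.8-fold) and the checkpoint receptor Havcr2 (53.7-fold), and 9 of the 10 had BMDM_T like healthy marrow, 1 of them with the interval within 2-fold.

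Chemokine ligands, which draw leukocytes into tissue, gave a like pattern. Of 18 tested, 15 rose in TAM, 1 fell (Ppbp, a platelet chemokine), and for all 16 BMDM_T was like healthy marrow, though only 2 had the interval within 2-fold. Cxcl14 was at 460, 314 and 247 CPM in TAM, at 1.61 to 5.21 in BMDM_H and at 1.15 to 6.31 in BMDM_T. Ccl12, a monocyte attractant, rose 102-fold, and Ccl4, an inflammatory chemokine, 25.9-fold. The receptors were split: 5 of 12 tested chemoattractant receptors rose and 5 fell, beside 28.0% and 28.3% of all tested genes. Ccrl2, a chemerin-binding receptor, rose 25.5-fold and Ltb4r1, the leukotriene B4 receptor of neutrophils, fell 21.9-fold, both with BMDM_T like healthy marrow.

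Lysosomal genes rose together by smaller amounts. Of 20 tested, 18 rose and 2 were not called, with a median log2 difference of 1.49. BMDM_T was like healthy marrow for 16, 13 of them with the interval within 2-fold. Among all genes higher in TAM, 82.6% were like healthy marrow, and 56.9% of those had the interval within 2-fold. Ctsl, a lysosomal cysteine protease, rose 10.7-fold and Ctsz 6.25-fold. Of 14 tested lipid-handling genes 9 rose and 2 fell, and of 12 genes of alternative activation 9 rose and 2 fell (Chil3 and Irf4). Over all tested genes, 28.0% rose and 28.3% fell. Of 22 tested matrix, protease and angiogenesis genes 16 rose and 2 fell. Vegfa, the main growth factor of vessels, was at 467, 365 and 426 CPM in TAM, at 21.5 to 44.2 in BMDM_H and at 24.4 to 31.2 in BMDM_T.

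**Figure D2:**
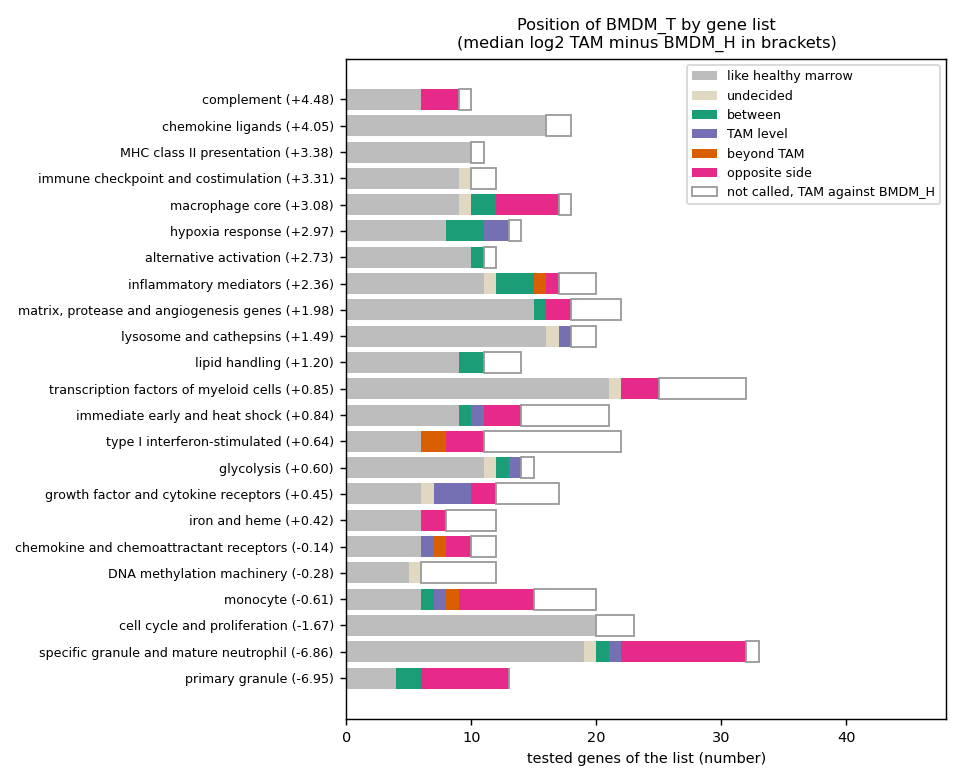
Number of tested genes of each function list by the position of BMDM_T, with the median log2 difference of TAM minus BMDM_H in brackets after each list name. Class II, chemokine ligand, checkpoint, DNA methylation and cell cycle lists hold no gene between, at TAM level, beyond TAM or on the opposite side. These positions hold 6.41% of all genes called in TAM against BMDM_H, so few are found in most lists. On the opposite side lie 7 of 13 primary granule genes and 10 of 33 specific granule genes, beside 4.04% of all genes lower in TAM.

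Large falls were measured in neutrophil granule genes. Ltf (chr9:111019271-111042767), lactoferrin of specific granules, was at 16.7, 19.1 and 28.2 CPM in TAM, at 15390, 15680, 14690 and 14790 in BMDM_H and at 14490, 12430, 15240 and 15380 in BMDM_T. The marrow groups overlapped, the fall in TAM was 689-fold (edgeR adjusted p = 4.77e-15), and the interval of BMDM_T minus BMDM_H ran from -0.42 to 0.28. Ngp, a granule protein, fell 596-fold, Camp, the cathelicidin precursor, 513-fold, Lcn2, a siderophore-binding protein, 498-fold, S100a8, a calcium-binding alarmin, 348-fold, Pglyrp1, a peptidoglycan-binding protein, 293-fold, and Retnlg, a resistin-like protein, 275-fold. All 7 had BMDM_T like healthy marrow, but with the replicate number as a block Pglyrp1 was called higher in BMDM_T (edgeR adjusted p = 0.031), which puts it on the opposite side. Of 33 tested specific granule and mature neutrophil genes 31 fell and 1 rose, with a median of -6.86, or -6.82 with genes of 3 or fewer counts set at their bound.

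Nuclear regulators of the granulocyte line fell too. Cebpe, needed for specific granule formation, was at 9.45, 2.12 and 4.91 CPM in TAM against 765 to 960 in BMDM_H and 704 to 1095 in BMDM_T. Nfe2 fell 200-fold and its BMDM_T values of 431 to 641 CPM overlapped the 411 to 543 of BMDM_H. Gfi1, a repressor of the granulocyte line, had 1 count in all TAM libraries against 169 in each marrow group. Myb, a progenitor factor, was at 0 counts in TAM, at least 78.8-fold lower than in BMDM_H. Of 32 tested myeloid transcription factors 18 rose and 7 fell, beside 28.0% and 28.3% of all tested genes.

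The division machinery fell as a block. Of 23 tested cell cycle genes, 20 fell in TAM and 3 were not called, with a median of -1.67, and all 20 had BMDM_T like healthy marrow. For 19 of the 20 the interval of BMDM_T minus BMDM_H lay within 2-fold. Among all genes lower in TAM, 80.9% were like healthy marrow, and 80.0% of those had the interval within 2-fold. Mki67, the proliferation antigen, was at 20.6, 18.6 and 23.0 CPM in TAM, at 115, 138, 140 and 104 in BMDM_H and at 94.8, 114, 107 and 141 in BMDM_T. Plk1, a mitotic kinase, fell 4.77-fold and Ccna2, cyclin A, 4.67-fold. Among 12 tested genes of DNA methylation and demethylation 2 rose and 4 fell, a share called near the 56.3% over all tested genes. Dnmt1, the maintenance methyltransferase, fell 2.24-fold, Gadd45a fell 8.73-fold and Gadd45b rose 2.62-fold, and BMDM_T was like healthy marrow for these 3 genes.

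In a small set the TAM change was partly present in marrow of tumor-bearing mice. Socs3 (chr11:117966079-117970047), a feedback inhibitor induced by STAT3 signals, was at 557, 857 and 931 CPM in TAM, at 508, 450, 472 and 339 in BMDM_T and at 93.9, 98.1, 83.7 and 70.3 in BMDM_H. The 3 groups did not overlap, and BMDM_T minus BMDM_H was 2.33 ± 0.20 (log2, SE, edgeR adjusted p = 2.73e-07), 0.739 of the TAM difference of 3.15 ± 0.21. Mif (chr10:75859353-75860240), a proinflammatory cytokine, was at 862, 741 and 809 CPM in TAM, at 131 to 185 in BMDM_T and at 41.4 to 65.1 in BMDM_H. Mgl2, a galactose-type lectin of alternatively activated macrophages, was at 192, 204 and 182 CPM in TAM, at 11.7 to 17.6 in BMDM_T and at 2.39 to 7.44 in BMDM_H. Nos2, the inducible nitric oxide synthase, was at 45.6, 45.6 and 59.0 CPM in TAM and at 30.1, 5.04, 15 and 9.02 in BMDM_T, while BMDM_H held 1 count in 1 of 4 libraries.

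Other genes of the between position took smaller steps in marrow. Ier3, an immediate early survival gene, rose 1.85-fold in BMDM_T and 7.55-fold in TAM, and Tgfbi, a matrix adhesion protein, 1.62-fold and 4.84-fold. Tgfbi held its position in 16 of 22 settings and lost its BMDM_T call with total counts (edgeR adjusted p = 0.0563). Csf2rb2, a beta subunit of the interleukin 3 receptor, rose 3.08-fold in BMDM_T and 9.33-fold in TAM, and its near-identical neighbour Csf2rb makes the split of reads uncertain. Gbp2b, an interferon-induced GTPase of a multigene family, rose 2.84-fold and 7.62-fold, and its TAM value of 71.7 CPM in replicate 1 lay within the 29.8 to 72.1 of BMDM_T. Trem2, a lipid receptor of macrophages, was at 799, 687 and 589 CPM in TAM, at 27.7 to 43.1 in BMDM_T and at 14.9 to 23.4 in BMDM_H, and it kept its position in 10 of 22 other settings.

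Hypoxia genes were spread over the positions. When oxygen falls, stabilised HIF factors bind a short core motif near their target genes and raise glucose uptake, glycolysis and vessel growth. Of 14 tested hypoxia genes 12 rose in TAM and 1 fell, with a median log2 difference of 2.97. BMDM_T was between for Bnip3, Slc2a1 and Mif, at TAM level for Ankrd37 and Egln3 and like healthy marrow for 7 that rose, among them Vegfa and Hilpda. Slc2a1 (chr4:119108711-119137983), the basal glucose transporter, was at 327, 262 and 324 CPM in TAM, at 91.5, 72.3, 63.5 and 44.2 in BMDM_T and at 19.9, 17.7, 29.8 and 39.0 in BMDM_H, with no overlap of groups. Bnip3, a mitophagy receptor, was at 71.1, 61.0 and 123 CPM in TAM, at 15.3 to 36.6 in BMDM_T and at 5.21 to 7.96 in BMDM_H.

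Ankrd37 (chr8:45996902-46005707), an ankyrin-repeat gene and a HIF target, was at 50.6, 39.8 and 47.6 CPM in TAM, at 52.8, 65.6, 70.4 and 32.5 in BMDM_T and at 7.16, 8.04, 3.72 and 7.81 in BMDM_H. TAM and BMDM_T overlapped and both lay above every BMDM_H library, and BMDM_T minus BMDM_H was 2.97 ± 0.31 (log2, SE, edgeR adjusted p = 6.08e-06). Its locus overlaps Ufsp2 and Lrp2bp on the other strand. Hilpda, a lipid droplet protein, was at 478, 322 and 356 CPM in TAM but at 1.08 to 8.40 in BMDM_T and 3.18 to 20.5 in BMDM_H, where the marrow groups overlapped.

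The promoters of hypoxia genes in each position are shown because the list parts here. They run from 250 bases before to 50 bases after the RefSeq start on GRCm38.p6, the mm10 assembly, read 5′ to 3′ on the gene's strand. Capitals mark ACGTG, the hypoxia response element core, on either strand, where matches on opposite strands can overlap. Ankrd37 (TAM level, chr8:45999801-46000100, minus strand) and Bnip3 (between, chr7:138909457-138909756, minus strand) held 2 matches each, and Slc2a1 (between, chr4:119108495-119108794, plus strand), Mif (between, chr10:75860228-75860527, minus strand) and the second listed start of Hilpda (like healthy marrow, chr6:29272376-29272675, plus strand) held 1 each.
Ankrd37: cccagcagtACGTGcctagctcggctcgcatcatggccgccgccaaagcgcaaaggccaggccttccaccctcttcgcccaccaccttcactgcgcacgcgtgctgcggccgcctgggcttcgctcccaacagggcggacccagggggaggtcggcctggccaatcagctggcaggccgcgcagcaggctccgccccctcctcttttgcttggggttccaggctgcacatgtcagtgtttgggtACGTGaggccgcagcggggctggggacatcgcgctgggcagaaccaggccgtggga
Bnip3: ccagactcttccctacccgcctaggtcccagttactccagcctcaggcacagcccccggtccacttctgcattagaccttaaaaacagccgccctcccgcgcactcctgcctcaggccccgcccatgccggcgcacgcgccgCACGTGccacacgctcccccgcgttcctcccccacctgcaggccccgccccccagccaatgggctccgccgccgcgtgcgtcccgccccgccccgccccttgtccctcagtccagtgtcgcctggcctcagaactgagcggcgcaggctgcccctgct
Slc2a1: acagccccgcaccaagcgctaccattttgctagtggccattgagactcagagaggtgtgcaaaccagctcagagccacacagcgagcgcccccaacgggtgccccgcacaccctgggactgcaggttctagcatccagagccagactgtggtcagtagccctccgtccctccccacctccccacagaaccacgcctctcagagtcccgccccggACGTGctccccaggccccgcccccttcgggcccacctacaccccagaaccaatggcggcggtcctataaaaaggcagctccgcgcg
Mif: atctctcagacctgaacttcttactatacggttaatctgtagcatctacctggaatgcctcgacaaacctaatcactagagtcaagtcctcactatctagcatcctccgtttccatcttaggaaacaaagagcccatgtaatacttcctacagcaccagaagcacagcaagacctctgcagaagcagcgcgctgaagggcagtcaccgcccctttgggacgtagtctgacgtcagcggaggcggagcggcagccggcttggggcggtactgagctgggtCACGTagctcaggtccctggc
Hilpda: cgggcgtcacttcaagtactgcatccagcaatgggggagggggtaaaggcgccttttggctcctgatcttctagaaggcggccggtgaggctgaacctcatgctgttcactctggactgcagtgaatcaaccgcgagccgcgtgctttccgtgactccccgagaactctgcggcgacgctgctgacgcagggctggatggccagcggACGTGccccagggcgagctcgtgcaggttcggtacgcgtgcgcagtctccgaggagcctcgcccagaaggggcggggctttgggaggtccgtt

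The motif was found in 5 of 5 promoters of the hypoxia genes between or at TAM level. It was in 6 of 8 promoters of the 6 matched hypoxia genes that rose in TAM with BMDM_T like healthy marrow. Each of these 6 genes held a match at 1 start or more, and the promoters without a match were other starts of Hilpda and Vegfa. Counted by gene, the motif thus did not part the positions of this list. It was found in 26.4% of 7497 promoters of tested genes and in 19.6% of 32851 promoters of the table. Over all genes higher in TAM it was in 17 of 34 promoters of 26 genes at TAM level, Ankrd37 and Egln3 among them. It was in 29.0% between, in 27.5% like healthy marrow, in 16.7% on the opposite side and in 2 of 12 beyond TAM. A gene with several starts counts once per start. A match is a description of the sequence and not of binding.

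**Figure D3:**
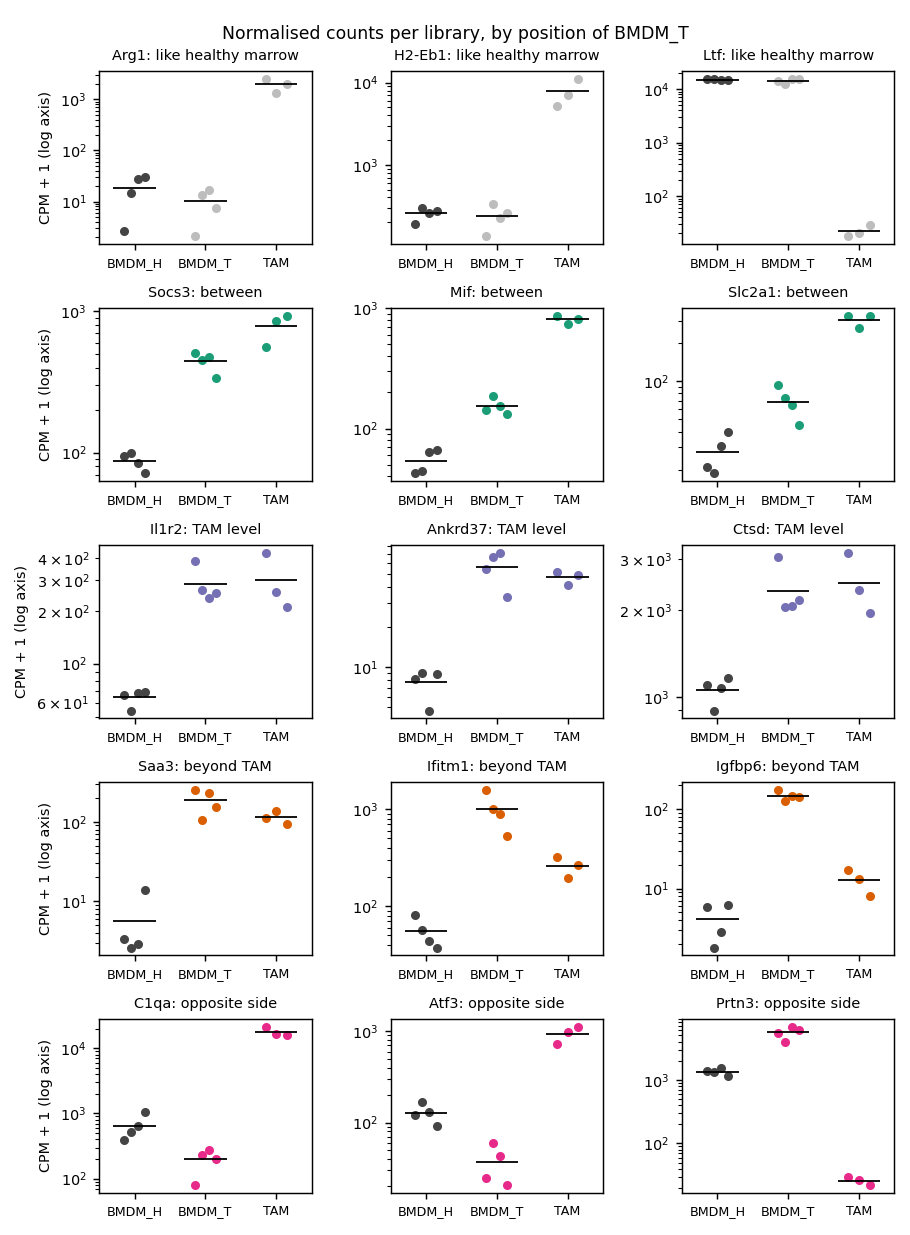
CPM plus 1 on a log axis in each BMDM_H, BMDM_T and TAM library for 15 genes, 3 of each position, with 1 point per library and a bar at the group mean. For Arg1, H2-Eb1 and Ltf the marrow groups lie together, for Socs3, Mif and Slc2a1 BMDM_T lies between, for Il1r2, Ankrd37 and Ctsd it lies with TAM, for Saa3, Ifitm1 and Igfbp6 its mean lies past TAM, and for C1qa, Atf3 and Prtn3 it lies on the far side of BMDM_H.

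Of the genes higher in TAM, 34 had BMDM_T at TAM level, with a median log2 difference of 1.01 in BMDM_T and 1.08 in TAM. Il1r2 (chr1:40074079-40125231), the decoy receptor for interleukin 1, was at 427, 256 and 208 CPM in TAM, at 382, 263, 237 and 252 in BMDM_T and at 65.3, 53.1, 67.0 and 67.7 in BMDM_H. TAM and BMDM_T overlapped, neither overlapped BMDM_H, and the differences from BMDM_H were 2.25 ± 0.24 in TAM and 2.18 ± 0.23 in BMDM_T (log2, SE). Il1r2 was also the 1 gene of the mature neutrophil list that rose in TAM. Ctsd (chr7:142375911-142388038), cathepsin D, was the lysosomal gene at this position, with 3162, 2346 and 1958 CPM in TAM, 3049, 2046, 2075 and 2172 in BMDM_T and 898 to 1166 in BMDM_H.

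Fam20c, a kinase of secreted proteins, rose 12.7-fold in TAM and 8.73-fold in BMDM_T, and was at 31.1 to 85.1 CPM in BMDM_T against 1.86 to 8.76 in BMDM_H. Tlr1, a receptor for bacterial lipopeptides, rose 5.18-fold in TAM and 3.56-fold in BMDM_T. Scamp1, a vesicle membrane protein, rose 2.60-fold and 2.44-fold, and Csf2rb, the shared beta chain of the GM-CSF receptor, 2.34-fold and 1.88-fold. Slc16a3, the lactate exporter, was at 988, 498 and 503 CPM in TAM, at 1125, 777, 728 and 881 in BMDM_T and at 314 to 402 in BMDM_H. Of 15 tested glycolysis genes 9 rose in TAM and 5 fell, beside 28.0% and 28.3% of all tested genes. Tpi1, an enzyme of the pathway, rose 3.91-fold in TAM, and the neutrophil glucose transporter Slc2a3 fell 51.8-fold. With the replicate block both were called higher in BMDM_T than in BMDM_H (edgeR adjusted p = 0.0477 for Tpi1 and 0.0345 for Slc2a3), and Slc16a3 lay beyond TAM.

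For 10 genes higher in TAM, the BMDM_T level passed that of TAM. Igfbp6 (chr15:102144362-102149511), which binds insulin-like growth factor II, was at 173, 125, 147 and 142 CPM in BMDM_T, at 16.1, 12.2 and 6.98 in TAM and at 4.78, 0.804, 1.86 and 5.21 in BMDM_H. No group overlapped another, and the difference from BMDM_H was 48.5-fold in BMDM_T (edgeR adjusted p = 8.39e-09) and 3.70-fold in TAM (0.00216). Ifitm1 (chr7:140967221-140969825), an interferon-induced membrane protein, was at 1575, 1003, 897 and 530 CPM in BMDM_T, at 319, 195 and 263 in TAM and at 36.4 to 80.4 in BMDM_H. Ifitm2 took smaller steps of 2.62-fold in BMDM_T and 1.75-fold in TAM, and the Ifitm genes are near-identical copies between which reads may be split.

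Saa3 (chr7:46711998-46715700), an acute-phase serum amyloid, was at 251, 105, 231 and 152 CPM in BMDM_T, at 111, 134 and 93.8 in TAM and at 2.39, 1.61, 1.86 and 13.0 in BMDM_H. BMDM_T and TAM overlapped here, the edgeR adjusted p of TAM against BMDM_T was 0.0249, and the beyond position held in 15 of 22 other settings, whereas both groups lay above every BMDM_H library. Bcl3, an atypical inhibitor of NF-kB, was at 102 to 153 CPM in BMDM_T, at 69.5 to 87.6 in TAM and at 37.2 to 53.3 in BMDM_H. Gcnt2, a glycan-branching enzyme, overlapped between BMDM_T and TAM and held its position in 8 of 22 settings. The Saa3 promoter is shown since its BMDM_T level rose 54.4-fold over healthy marrow. It held 1 match to TTGCNNAA, a motif of C/EBP factors, marked in capitals, a motif found in 10.8% of all promoters of the table (GRCm38.p6, chr7:46715627-46715926, minus strand, either strand searched).
Saa3: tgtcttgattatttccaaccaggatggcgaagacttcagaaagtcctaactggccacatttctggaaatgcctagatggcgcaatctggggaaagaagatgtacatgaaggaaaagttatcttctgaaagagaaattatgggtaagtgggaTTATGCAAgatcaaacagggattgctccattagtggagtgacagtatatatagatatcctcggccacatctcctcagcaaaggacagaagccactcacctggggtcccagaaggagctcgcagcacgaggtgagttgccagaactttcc

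The Ifitm1 and Socs3 promoters held 0 matches to TTGCNNAA in the same window.

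On the opposite side were 53 genes higher in TAM whose BMDM_T level lay below healthy marrow. They included the complement recognition chains C1qa, C1qb and C1qc, made by macrophages. Of 10 tested complement genes 8 rose in TAM and 1 fell (C3), with a median log2 difference of 4.48, and these 3 were the ones on the opposite side. C1qa (chr4:136895917-136898803) was at 21220, 16630 and 15900 CPM in TAM, at 390, 512, 630 and 1057 in BMDM_H and at 79.7, 231, 274 and 198 in BMDM_T. The 3 groups did not overlap, TAM was 28-fold higher than BMDM_H and BMDM_T was 3.27-fold lower (edgeR adjusted p = 0.00193). C1qb and C1qc fell 2.74-fold and 2.38-fold in BMDM_T. In BMDM_H, C1qc was at 252.4 CPM in replicate 4 and at 99.73 to 111.6 in the others. Without that library the BMDM_T call of C1qc was lost (edgeR adjusted p = 0.0778). C1qb held its position in 22 of 22 settings and C1qc in 18. Of 18 tested macrophage genes 16 rose in TAM and 1 fell (Lyz2), and 5 of them (Adgre1, Cx3cr1 and the C1q chains) lay on the opposite side. Cx3cr1, the fractalkine receptor, was at 176, 269 and 204 CPM in TAM, at 25.7 to 38.2 in BMDM_H and at 6.93 to 14.3 in BMDM_T.

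Of 21 tested immediate early and heat shock genes 3 lay on the opposite side (Atf3, Nr4a1 and Fosb), and of 32 myeloid transcription factors also 3 (Klf4, Id2 and Irf7), while most of the others that were called had BMDM_T like healthy marrow. Atf3 (chr1:191170296-191218039), a stress-induced factor, was at 720, 989 and 1113 CPM in TAM, at 119, 166, 128 and 91.1 in BMDM_H and at 23.7, 58.0, 41.6 and 19.9 in BMDM_T. Nr4a1, an orphan nuclear receptor of patrolling monocytes, was at 1916, 1401 and 1468 CPM in TAM, at 327 to 406 in BMDM_H and at 61.3 to 147 in BMDM_T. Klf4, a monocyte factor, rose 3.56-fold in TAM and fell 2.37-fold in BMDM_T. Fosb, an AP-1 subunit, rose 13.4-fold and fell 2.12-fold, and Id2, an inhibitor of helix-loop-helix factors, rose 3.37-fold and fell 1.59-fold. The opposite side position held in 13 of 22 settings for Fosb and in 14 for Id2. Of the 21 immediate early and heat shock genes 12 rose in TAM and 2 fell (Egr1 and Ier2), among the risers Hspa1a, a heat shock protein, by 46.5-fold. Only TAM were released by enzyme, and digestion and tumor cannot be told apart in these genes.

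Further genes of this position had other roles. Cbr2, a carbonyl reductase, was at 113, 111 and 31.0 CPM in TAM and at 5.21 to 9.65 in BMDM_H, and BMDM_T held 2 counts. Its position held in 13 of 22 settings. Tgif1, a repressor of TGF-beta targets, rose 4.38-fold in TAM and fell 3.60-fold in BMDM_T. Fn1, fibronectin, rose 3.55-fold and fell 1.96-fold, Il10ra, the interleukin 10 receptor, 2.03-fold and 1.64-fold, and Blvrb, biliverdin reductase B, 2.34-fold and 1.89-fold. Smpdl3b, a lipid-modifying phosphodiesterase, rose 6.61-fold in TAM and fell 4.48-fold in BMDM_T, a position it held in 8 of 22 settings.

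Interferon-stimulated genes did not move as 1 group. Of 22 tested 10 rose in TAM, 1 fell and 11 were not called, a share called near the 56.3% over all tested genes, with a median log2 difference of 0.64. Outside the list, the related gene Ifi44l was at 79.5, 69.5 and 82.5 CPM in TAM, at 41.6 to 65.3 in BMDM_H and at 9.92 to 15.1 in BMDM_T. Bst2, tetherin, rose 3.54-fold in TAM and fell 2.38-fold in BMDM_T, and Irf7, a master factor of the response, rose 2.29-fold and fell 1.73-fold. Bst2 held its position on the opposite side in 22 of 22 settings and Irf7 in 15. Zbp1, a nucleic acid sensor, rose 4.16-fold in TAM, with 38.7 to 57.1 CPM in BMDM_T and 48.4 to 77.2 in BMDM_H. These stood against Ifitm1 and Ifitm2, which passed TAM in BMDM_T.

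Among the genes lower in TAM, 86 had BMDM_T on the opposite side, that is above healthy marrow. Primary granule genes are transcribed in granulocyte and monocyte precursors. Of 13 tested genes of this list 11 fell in TAM and 2 rose. Of the 11, 7 were higher in BMDM_T, among them the proteases Prtn3, Elane and Ctsg, beside 4.04% of all genes lower in TAM. Prtn3 (chr10:79874476-79883174), proteinase 3, was at 28.3, 25.5 and 21.5 CPM in TAM, at 1355, 1313, 1525 and 1158 in BMDM_H and at 5503, 3895, 6774 and 6080 in BMDM_T. No group overlapped another, BMDM_T was 4.16-fold above BMDM_H (edgeR adjusted p = 5.03e-07) and TAM 53.8-fold below. Prtn3 overlaps Plppr3 on the other strand. Mpo, myeloperoxidase, was at 1.11 to 5.30 CPM in TAM, at 380 to 621 in BMDM_H and at 1526 to 1863 in BMDM_T, and Elane, neutrophil elastase, at 0.259 to 1.59, 109 to 172 and 361 to 486. Fcnb, a ficolin on the same list, fell 716-fold in TAM and had BMDM_T like healthy marrow, with 461 to 515 CPM against 281 to 576.

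Of the 33 specific granule and mature neutrophil genes, 10 also lay on the opposite side. Prok2, a chemokine-like peptide of neutrophils, was at 411, 166, 217 and 218 CPM in BMDM_T and at 14.3, 11.3, 26.0 and 20.8 in BMDM_H, while TAM held 2 counts. Outside that list, Steap4 (chr5:7960457-7982213), a metalloreductase, was at 411, 303, 217 and 191 CPM in BMDM_T, at 38.2, 32.2, 5.58 and 15.6 in BMDM_H and at 1.03 to 2.12 in TAM. Asprv1, a protease on the list, rose 4.53-fold in BMDM_T and Lrg1, a secreted glycoprotein outside it, 3.81-fold, while both fell in TAM, 116-fold and 34.2-fold. Cxcr2, the receptor that releases neutrophils from marrow, was at 635 to 771 CPM in BMDM_T, at 217 to 284 in BMDM_H and at 1.11 to 3.71 in TAM. Mmp9, gelatinase B, rose 2.23-fold in BMDM_T, Ifitm6 2.5-fold and Csf3r, the G-CSF receptor, 1.77-fold, and Tnfsf14, a T cell costimulator on neither granule list, 2.88-fold. Hp, haptoglobin of the primary granule list, rose 1.57-fold and Cd177, a neutrophil surface marker, 1.44-fold. Cd177 held its position in 9 of 22 settings, Csf3r in 12 and Hp in 13. With total counts in place of TMM factors Hp, Cd177 and Csf3r no longer passed the threshold (edgeR adjusted p = 0.0533, 0.114 and 0.0733). The same held without BMDM_H replicates 3 and 4 (0.122, 0.265 and 0.362).

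Of the genes lower in TAM, 29 had BMDM_T between. St3gal5, the GM3 ganglioside synthase, was at 2.22, 2.12 and 3.36 CPM in TAM, at 166 to 251 in BMDM_T and at 283 to 518 in BMDM_H. Stard10, a lipid transfer protein, was at 3.33 to 4.77 CPM in TAM, at 18.5 to 25.4 in BMDM_T and at 39.8 to 98.9 in BMDM_H. Rasl11b, a small GTPase, fell 33.3-fold in TAM and 2.05-fold in BMDM_T, Tmem8 4.27-fold and 2.07-fold, and Rarg, a retinoic acid receptor, 4.49-fold and 2.5-fold. Rnase6, an antimicrobial ribonuclease, fell 4.75-fold in TAM and 2.46-fold in BMDM_T, and Fabp4, a fatty acid carrier, 6.05-fold and 2.74-fold, but these held the between position in 10 and 3 of 22 settings. With the replicate block Rarg and Fabp4 were at TAM level.

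At TAM level were 24 genes lower in TAM, and 9 of them belonged to the list of red cell precursors. Of 12 tested genes of that list 11 fell in TAM, 2 of them between (Car1 and Aqp1). All 12 were lower in BMDM_T than in BMDM_H, beside 2.0% of all tested genes. Car2, a red cell carbonic anhydrase, was at 3.33, 2.12 and 3.62 CPM in TAM, at 4.31, 14.3, 8.08 and 5.41 in BMDM_T and at 27.1, 63.5, 78.1 and 135 in BMDM_H. Slc4a1, the band 3 anion exchanger, was at 0 in TAM, had 1 count in BMDM_T and was at 10.3 to 49.4 CPM in BMDM_H, at least 78.6-fold lower in TAM than in BMDM_H. The water channel Aqp1 was at 0.259 to 3.33 CPM in TAM, at 2.31 to 10.1 in BMDM_T and at 16.7 to 75.5 in BMDM_H. Summed CPM of the 12 genes was 13.8 to 16.8 in TAM, 9.92 to 35.3 in BMDM_T and 94.7 to 479 in BMDM_H. The sum is over the same genes that were called, so it restates their positions. The part of red cell precursor RNA in other genes at TAM level was not tested.

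The other genes lower in TAM with BMDM_T at TAM level took small steps. Thra, a thyroid hormone receptor that overlaps Nr1d1 on the other strand, was at 6.98 to 11.1 CPM in TAM, at 5.41 to 11.5 in BMDM_T and at 22.5 to 54.6 in BMDM_H. Zfp467, a zinc finger gene, fell 2.18-fold in TAM and 2.16-fold in BMDM_T, Tob1, an antiproliferative gene, 1.81-fold and 1.92-fold, and Dusp22, a phosphatase, 1.53-fold and 2.03-fold. Haao, an enzyme of tryptophan breakdown, fell 2.75-fold and 2.08-fold and held its position in 11 of 22 settings. Ccr2 (chr9:124101950-124113557), the receptor by which monocytes leave marrow, was at 159, 156 and 165 CPM in TAM, at 261, 258, 180 and 289 in BMDM_H and at 114, 95, 108 and 142 in BMDM_T. All 4 BMDM_T libraries lay below TAM, and TAM lay below all BMDM_H libraries. Ccr2 held its position beyond TAM in 14 of 22 settings, and the other gene at this position was Fcna, a ficolin named because the count is small. Of 20 tested monocyte genes 5 rose in TAM and 10 fell. For 9 BMDM_T was lower than BMDM_H and for 2 higher, beside 2.0% and 2.82% of all tested genes.

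Of the sort antigens, Adgre1 and Ly6c2 differed in the direction of the gates. Of 6 listed, 5 were in the table, and Ly6g, which encodes part of the Gr1 epitope, was not. Adgre1, which encodes F4/80, was at 131, 152 and 184 CPM in TAM, at 14.9 to 28.6 in BMDM_H and at 5.41 to 18.3 in BMDM_T, where the marrow groups overlapped. Its BMDM_T position on the opposite side held in 9 of 22 settings, and with the replicate block the BMDM_T call was lost (edgeR adjusted p = 0.0506). Ly6c2, part of the Gr1 epitope, was at 4.77 to 9.57 CPM in TAM, at 788 to 1307 in BMDM_T and at 1244 to 2545 in BMDM_H, and reads of Ly6c1 and Ly6c2 may be split. Itgam, which encodes CD11b, fell 1.33-fold in TAM, a call that total-count scaling ended (edgeR adjusted p = 0.0549). The call was also lost without TAM replicate 1, 2 or 3 (edgeR adjusted p = 0.0597, 0.0993 and 0.0538). The same held without BMDM_H replicate 2 or 3 (0.0545 and 0.0794) and without the shallowest BMDM_H libraries together (0.117). Thinning ended the call too (0.0995), as did testing against a fold of 1.5. Ptprc, which encodes CD45, gave a log2 difference of 0.04 ± 0.45 (SE), which was not called.

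Of 17 tested growth factor and cytokine receptors 9 rose in TAM and 3 fell, beside 28.0% and 28.3% of all tested genes. Csf1r, the receptor for the macrophage growth factor, rose 6.95-fold, and its BMDM_T difference had an interval from -0.39 to 0.37, while Il17ra fell 4.04-fold. Of 20 tested inflammatory mediators 14 rose and 3 fell. For 5 of the 20 BMDM_T was higher than BMDM_H and for 0 lower, beside 2.82% and 2.0% of all tested genes. Of 12 tested iron and heme genes 5 rose and 3 fell, beside the same 28.0% and 28.3%. Those that rose included Fth1, ferritin heavy chain, at 11870, 10400 and 12440 CPM in TAM against 1996 to 2186 in BMDM_H. The phagosome metal exporter Slc11a1 rose 2.72-fold.

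Markers of other cell types were read in the same way. Eosinophil, basophil and mast cell genes were nearly absent from TAM: 7 of 7 tested fell, 7 of 12 in the table were at 0 counts in TAM, and summed CPM was 2.59 to 20.0 in TAM against 401 to 731 in BMDM_H. Prg2, eosinophil major basic protein, was at 0 counts in TAM, at least 566-fold lower, Prss34, a basophil protease, at least 229-fold lower, and the acute-phase protein Orm1 at least 232-fold lower, all with BMDM_T like healthy marrow. B cell genes fell at 8 of 10 tested, and 8 of 13 in the table were at 0 in TAM. Of the 10 tested, 4 were higher in BMDM_T than in BMDM_H, beside 2.82% of all tested genes. These were the surrogate light chain genes Vpreb1, Vpreb3 and Igll1 and the secretory factor Mzb1. Vpreb1 was at 104 to 209 CPM in BMDM_T and 13.0 to 67.0 in BMDM_H, and the summed CPM of B cell genes was 508 to 952 in BMDM_T and 233 to 541 in BMDM_H, so the groups overlapped. The part of B cells in the marrow differences was not tested.

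**Figure D4:**
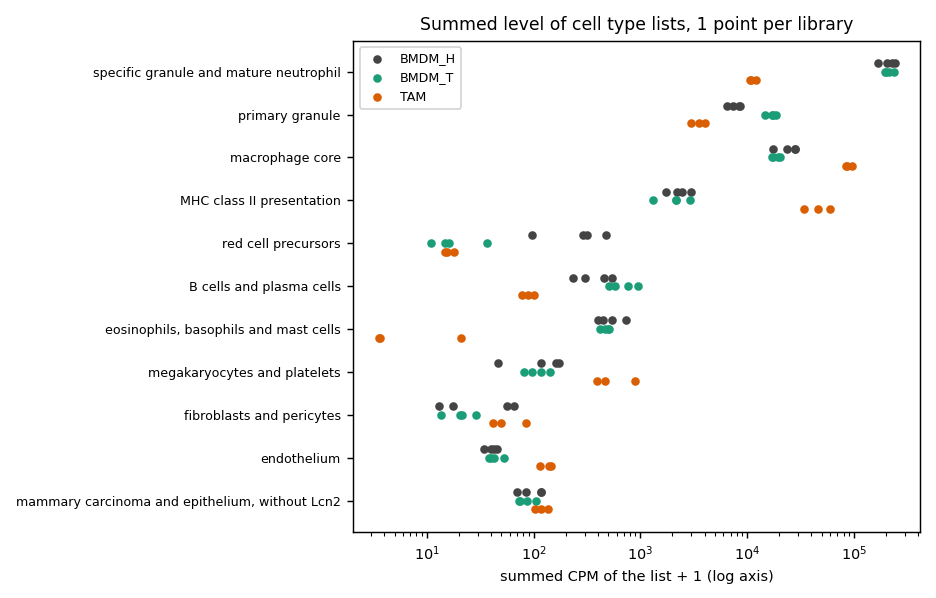
Summed CPM plus 1 of cell type lists on a log axis, with 1 point for each BMDM_H, BMDM_T and TAM library. Red cell precursor sums were 9.92 to 35.3 in BMDM_T and 94.7 to 479 in BMDM_H, eosinophil, basophil and mast cell sums were 2.59 to 20.0 in TAM, and carcinoma sums without Lcn2 were 102 to 136 in TAM and 69.2 to 117 in BMDM_H.

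Of 6 tested carcinoma and epithelial genes 2 rose in TAM (Krt18 and Cdh1) and 2 fell (Lcn2 and Spint2). Cdh1, an epithelial cadherin, was at 17.2, 7.96 and 12.2 CPM in TAM and at 0 to 13.0 in BMDM_H, where the groups overlapped, and its call was lost without BMDM_H replicate 2 (edgeR adjusted p = 0.0522). Summed CPM of 12 carcinoma and epithelial genes without Lcn2, which neutrophils also make, was 102 to 136 in TAM, 71.4 to 104 in BMDM_T and 69.2 to 117 in BMDM_H. Krt18, an epithelial keratin, was at 37.8 to 67.4 CPM in TAM and at 12.7 to 42.8 in BMDM_H, and Epcam was at 0.556 to 3.18 and 0 to 5.21. The 4 tested fibroblast genes were not called, and the summed CPM of 9 such genes was 40.9 to 84.3 in TAM and 12.1 to 65.1 in BMDM_H. Endothelial sums were 114 to 145 CPM in TAM and 33.5 to 44.2 in BMDM_H. Only 2 of the 14 listed endothelial genes were tested, and both rose (Pecam1 and Eng). Which cells made this RNA was not tested. Of 5 tested megakaryocyte and platelet genes 4 fell while Pf4, a platelet chemokine also made by macrophages, rose 11.7-fold. The 3 tested adipocyte genes fell. Dendritic genes rose at 4 of 6 tested, among them Itgax, which encodes CD11c and which macrophages share, by 18.2-fold. Of progenitor genes 4 of 5 tested fell and 1 rose (Sox4). Of 2 tested T and NK cell genes 1 fell, Cd3d, a T cell receptor subunit, which was at 0 to 0.556 CPM in TAM and 117 to 244 in BMDM_H.

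Marrow of tumor-bearing mice also had changes without a call in TAM. At 91 genes BMDM_T was called against BMDM_H and TAM was not, 49 higher and 42 lower in BMDM_T. Of 80 named genes placed between, at TAM level, beyond TAM or on the opposite side, 26 held their position in all 22 other settings, among them Mif, Mgl2, Slc2a1, Ankrd37, Il1r2, Ctsd, Ifitm1, C1qb, Atf3, Nr4a1, Klf4, Prtn3, Mpo, Elane and Cxcr2. In 8 of the 80 the position held in at most 11 of the 22.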

How the data were processed

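The values are whole-number counts per gene from 3' end RNA libraries, in 1 table deposited by the authors with 17 libraries and 24421 rows. Per the submitters' processing notes the tools were bcl2fastq, STAR 2.4.2a and HTSeq, with build mm10, and the labels' protocols describe molecular identifiers. The annotation, the strand setting and any collapsing of identifiers were not given in the sources used here. Counts of the 6 batch 2 libraries did not line up with the gene rows (Spearman -0.018 to 0.002 with batch 1, 0.726 to 0.971 within batch 1), so batch 1 alone was used, and 14214 rows without a symbol were left out.

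The 11 libraries were fitted as 3 group means with edgeR 4.0.16 (R 4.3.3, limma 3.58.1), filterByExpr, TMM factors and the quasi-likelihood test, with Benjamini-Hochberg adjusted p under 0.05. The fitting script was tested on simulated data. Folds are from that fit, and where a group had 0 counts a bound from 3 counts over the group is given. Alternatives included DESeq2 1.42.0, limma-voom, other scaling, filters, thinning and left-out libraries. Deviations of same-numbered libraries correlated at 0.132 to 0.242 between BMDM_T and BMDM_H, and at -0.053 to 0.069 between TAM and BMDM_H.

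The rule for named genes took the 8 largest rises and falls, up to 6 per position and direction, and 4 per direction with the BMDM_T interval within 2-fold. These had at least 30 CPM in the highest group, at least 10 counts in TAM and in BMDM_H and no overlap of those groups. It also took genes at 0 counts, sort antigens and up to 6 per list, without these limits, so some have few counts or overlapping groups. Lists and rules were chosen with earlier results of these data known. Genes named outside the rule, such as Cd3d, Krt18, Epcam and Fcna, were chosen after their values were seen. Coordinates are from the mm10 annotation.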

Additional observations from a re-analysis of the deposited data

Results flagged for a closer look

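In 17 of 307 sets of 4 libraries of a named gene, 1 library stood apart from the other 3 by Dixon's criterion, which chance alone meets in about 1 in 20 sets. In BMDM_H, Il1r2 was at 53.08 CPM in replicate 2 against 65.26 to 67.66 in the others, and Cx3cr1 at 25.74 CPM in the same library against 36.43 to 38.2. BMDM_H replicate 4 held Saa3 at 13.01 CPM against 1.609 to 2.388, C1qc at 252.4 against 99.73 to 111.6 and Prss34 at 31.23 against 106.0 to 116.2. BMDM_H replicate 1 held Ifitm6 at 1264 CPM against 788.5 to 851.0 and Csf3r at 553.9 against 260.2 to 306.4, and BMDM_H replicate 3 held the 1 count of Nos2 (1.86 CPM).

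In BMDM_T, replicate 1 held S100a8 at 37040 CPM against 24490 to 26070, Ctsd at 3049 against 2046 to 2172, Csf2rb at 305.8 against 199.7 to 209.3 and the 1 count of Slc4a1 (1.077 CPM). BMDM_T replicate 2 held Zbp1 at 38.66 CPM against 55.03 to 57.06, Vpreb1 at 209.3 against 103.9 to 120.9 and Bcl11a, a B lineage factor, at 30.26 against 16.16 to 18.3. Pgf was at 1.804 CPM in BMDM_T replicate 4 and Spon1 at 1.154 in replicate 3, with 0 in the other 3 libraries. Outside the comparison, the 6 batch 2 libraries held 13765150 counts in rows without a symbol.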

How the results depend on the processing

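Counts of TAM against BMDM_H calls were within 1.5 times under all settings but 2: 2702 (1312 higher, 1390 lower) when tested against a fold of 1.5, and 2731 (1313 higher) after thinning to the smallest library, where TAM against BMDM_T gave 2727. Calls of BMDM_T against BMDM_H numbered 168 at adjusted p under 0.01, 107 against a fold of 1.5, 235 thinned and 179 without BMDM_H replicates 3 and 4. For the positions between, TAM level, beyond TAM and opposite side, the counts higher in TAM were 16, 17, 3 and 20 at adjusted p under 0.01, 6, 10, 2 and 11 against a fold of 1.5, and 13, 13, 5 and 27 without BMDM_H replicates 3 and 4. Lower in TAM they were 8, 15, 0 and 40, then 6, 13, 0 and 31, then 12, 7, 1 and 38. The fold of 1.5 left 1101 higher genes like healthy marrow and 159 lower genes undecided. Thinning gave 4 beyond TAM, 35 opposite and 1036 like healthy marrow among higher genes, and 14 between, 13 at TAM level, 1 beyond TAM, 57 opposite and 1137 like healthy marrow among lower genes.

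Positions set by the share of the way, without calls, gave 421 between, 60 at TAM level, 16 beyond, 483 opposite, 1123 like healthy marrow and 0 undecided among higher genes, and 367, 50, 6 and 353 with 0 undecided among lower genes. Total counts gave 5 higher genes beyond TAM and 46 lower genes between. DESeq2 gave 1 lower gene beyond TAM, the strict filter 14 at TAM level and 1 beyond, and fits on each contrast's own libraries 6 higher genes beyond TAM. With the replicate number as a block, 4 lower genes were beyond TAM, and the calls were 4262 for TAM against BMDM_H and 468 for BMDM_T against BMDM_H. The cause was not tested.

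Leaving out 1 library at a time gave 238 to 409 calls of BMDM_T against BMDM_H (lowest without BMDM_H replicate 2). Higher genes between ranged from 20 (without BMDM_H replicate 1) to 36, beyond TAM from 4 (without TAM replicate 1) to 10, and opposite from 34 (without BMDM_T replicate 1, or BMDM_H replicate 1 or 2) to 52. Lower genes between ranged from 17 (without BMDM_T replicate 2) to 35, TAM level from 10 (without BMDM_H replicate 4) to 37 (without TAM replicate 3), beyond TAM from 0 to 4 and opposite from 56 (without BMDM_H replicate 2) to 98. Over named genes and settings, 6500 values kept their call or their lack of one, 244 lost the call and 17 gained it. Of results called in the main fit 0 reversed direction, and direction was not compared for the others. BMDM_H replicates 3 and 4 had the lowest depth.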
